A study of Mus musculus with 40 samples.

Results

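TGFβ is secreted in a latent form, folded into its own propeptide, and this complex is stored before it is activated. Latent TGFβ binding proteins (LTBP) tie the complex to fibrillin microfibrils and other matrix, whereas the transmembrane proteins NRROS and GARP (the product of Lrrc32) hold it at the surface of cells. Integrins, proteases and thrombospondin-1 release the active ligand, which signals through TGFβ receptor II, the receptor deleted in the endothelium of the mutant mice studied here. The 8 genes described are Ltbp1, Ltbp2, Ltbp3, Ltbp4, Nrros, Lrrc32, Thbs1 and Fbn1, chosen by name as genes of latent TGFβ storage and activation. Each matched 1 row of a table of 54307 genes, and all 8 passed the filter on low values (a mean of at least 1 normalized count) in choroid and in retina.

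Choroid and retina of 20 mice on a C57BL/6J background were sequenced, giving 40 libraries. All mice, controls included, carried floxed Tgfbr2 alleles, received tamoxifen eye drops at 6 to 7 weeks of age and 6 laser burns per eye, and were sacrificed on day 3 after the laser. In Tgfbr2ΔEC mice, tamoxifen activated a Cre recombinase under the endothelial Cdh5 promoter (Cdh5-CreERT2), and controls had no Cre. Within each genotype, 5 mice were fed PLX5622, an inhibitor of the CSF1 receptor that depletes mononuclear phagocytes (MP), from the first tamoxifen drop to the end, and 5 received control food. The groups are control – PLX, Tgfbr2ΔEC – PLX, control + PLX and Tgfbr2ΔEC + PLX, with 5 mice each. Mice 1 to 5, 6 to 10, 11 to 15 and 16 to 20 formed these groups in this order, both sexes were used, and the choroid samples were the central part that held the lesions.

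Choroid libraries held an estimated 21720522 to 28410265 reads and retina libraries 21033887 to 30421581. The deposited normalized counts are salmon estimates per gene, imported with tximport and normalized with DESeq2. Tgfbr2 itself did not separate the genotypes in these bulk libraries, and the reason was not tested. Its values are per gene over all cells, with none by exon or cell type. The normalized count of Tgfbr2 ran from 9836 to 10849 in control – PLX and from 8729 to 11303 in Tgfbr2ΔEC – PLX choroids. It therefore checks no label here. The paper reports PCR and qPCR of choroidal tissue as its check of the deletion. The libraries were also read by marker scores, each the mean log2(normalized count + 1) of a marker list. The neural retina score was 7.61 to 12.86 in choroids against 15.79 to 16.46 in retinas, and it was highest in Tgfbr2ΔEC – PLX choroids (11.32 to 12.86) and in the choroid of mouse 15 (12.81). Skeletal muscle markers scored 11.19 to 14.31 in choroids and 1.13 to 3.33 in retinas, and retinal pigment epithelium (RPE) markers 12.68 to 13.41 in choroids and 6.25 to 8.59 in retinas.

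By genome position (GRCm39), the LTBP genes lie apart. Ltbp1 is on chromosome 17 (75312519 to 75699507), Ltbp2 on chromosome 12 (84829986 to 84923306), Ltbp3 on chromosome 19 (5790932 to 5808669) and Ltbp4 on chromosome 7 (27004086 to 27037117). LTBP1, LTBP3 and LTBP4 bind latent TGFβ covalently, whereas LTBP2 is a microfibril protein of the same family that does not. Nrros, which holds latent TGFβ on myeloid cells and microglia, is on chromosome 16 (31960320 to 31984521), and Lrrc32, known from regulatory T cells, platelets and endothelium, is on chromosome 7 (98138490 to 98151388). Thbs1 encodes thrombospondin-1, a secreted activator (chromosome 2, 117941974 to 117957616), and Fbn1 encodes fibrillin-1, the backbone of microfibrils (chromosome 2, 125142514 to 125349913). All 8 are annotated as protein-coding.

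With PLX in choroid 3 members met the threshold, as described further on, and their promoters are shown because they moved in opposite directions. Each is the 250 bases before the start of the canonical transcript in GRCm39, printed 5′ to 3′ on the strand of the gene, with capitals marking CAGAC or its reverse complement GTCTG, the SMAD box.
Nrros, chr16:31984404-31984653, minus strand: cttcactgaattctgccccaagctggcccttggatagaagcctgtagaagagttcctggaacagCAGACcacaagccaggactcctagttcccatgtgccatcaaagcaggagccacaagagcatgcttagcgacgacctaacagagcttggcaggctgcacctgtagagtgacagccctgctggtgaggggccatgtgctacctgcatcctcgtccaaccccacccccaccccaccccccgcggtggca
Ltbp2, chr12:84923307-84923556, minus strand: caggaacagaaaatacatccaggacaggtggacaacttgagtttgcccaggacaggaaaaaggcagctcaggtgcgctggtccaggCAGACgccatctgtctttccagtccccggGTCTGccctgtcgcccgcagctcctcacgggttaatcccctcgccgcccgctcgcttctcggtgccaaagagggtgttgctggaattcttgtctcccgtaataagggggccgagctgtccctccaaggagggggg
Ltbp4, chr7:27033039-27033288, minus strand: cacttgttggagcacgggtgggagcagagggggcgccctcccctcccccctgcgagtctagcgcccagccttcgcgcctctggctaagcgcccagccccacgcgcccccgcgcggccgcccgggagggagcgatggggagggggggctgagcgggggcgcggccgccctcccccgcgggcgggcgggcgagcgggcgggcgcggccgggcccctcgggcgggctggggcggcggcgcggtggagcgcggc
The SMAD box was found once in the window of Nrros, at 2 places in that of Ltbp2 and not in that of Ltbp4, whose window has a GC content of 83.6%. Over the members, 6 of 8 windows held it, against 41.3% of 21770 promoters of protein-coding genes. GAGGAA, the core bound by the myeloid factor PU.1, was searched on both strands, and no member's window held it, against 22.9% of the same promoters. These are matches of letters and no measure of binding.

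All 8 members were higher in choroid than in retina, by 2.22 to 7.81 on the log2 scale. Ltbp2 (7.81 ± 0.42 SE, adjusted p = 1.99e-19) and Thbs1 (7.23 ± 0.14, adjusted p = 1.2e-33) had the highest differences, whose order is not fixed since the ratio of the choroid to the retina mean was 112 for Ltbp2 and 150 for Thbs1. The differences were smallest for Nrros (2.22 ± 0.15, adjusted p = 1.39e-16) and Ltbp3 (2.43 ± 0.07, adjusted p = 3.09e-27), by limma over the 40 libraries. Lrrc32 (6.22), Fbn1 (4.92), Ltbp4 (4.45) and Ltbp1 (2.90) lay between. Each member was higher in choroid in 20 of 20 mice, which gave an exact permutation p of 1.91e-06, the smallest that sign changes over mice allow. These counts stand beside a background in which 82.0% of 24317 genes differed between the tissues and 40.8% were higher in choroid, and the tissues differ in their cell types.

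In single libraries, no retina reached the lowest choroid for 7 of the 8 members. Thbs1 ran from 26566 to 91047 normalized counts in choroids (median 52878) and from 169 to 583 in retinas (median 365). Ltbp2 ran from 3148 to 5878 in choroids and from 2.01 to 182 in retinas, where its lowest values lie at or under 3 reads (2.235 to 3.36 normalized counts, depending on the library), so that its fold between tissues is poorly fixed. Lrrc32 ran from 1085 to 2211 in choroids and from 5.19 to 150 in retinas. Nrros was the exception, since its lowest choroid (240, mouse 15, + PLX) was below its highest retina (277, mouse 11, + PLX). Without PLX its choroids were 8.28-fold above retinas in control and 6.17-fold in Tgfbr2ΔEC mice, and with PLX 2.54-fold and 2.96-fold. For Ltbp1, Ltbp3, Ltbp4 and Fbn1 the choroid mean was 7.35, 5.29, 20.8 and 29.8 times the retina mean.

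**Figure D1:**
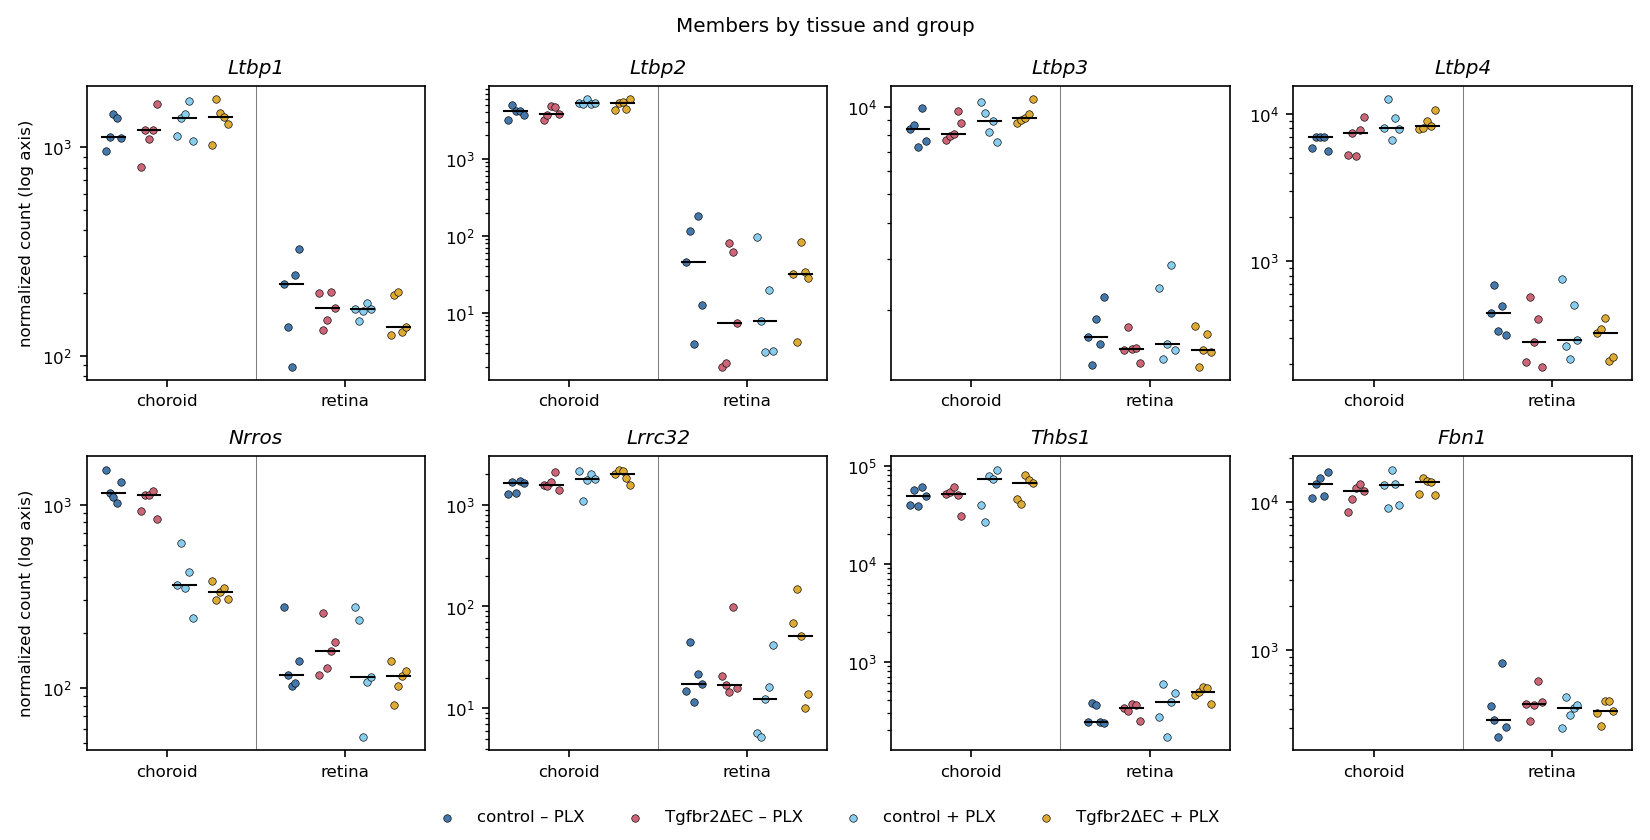
Normalized count (log axis) of each member in every library, by tissue and group, with 5 mice per group as points and the group median as a line. Choroids lie above all retinas for each member except Nrros, whose choroids fall with PLX to between 240 and 617.

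Levels were compared between members per kb of canonical transcript. Over the 20 choroids of both diets, the order of median normalized counts per kb was Thbs1 (8484), Ltbp4 (1652), Ltbp3 (1632), Fbn1 (1062), Ltbp2 (711), Lrrc32 (373), Ltbp1 (225) and Nrros (189). Thbs1 stood above Ltbp4 in 20 of 20 choroids, with ranges that did not overlap. Ltbp4 and Ltbp3 could not be ordered, since Ltbp4 was the higher in 10 of 20 libraries. The place of Nrros depended on diet. Without PLX its median was 294 per kb and that of Ltbp1 209, and Nrros was the higher in 9 of 10 choroids. With PLX the medians were 91.4 and 250, and Nrros was the lower in 10 of 10. The order depends on the length used. Per kb of the median length of a gene's annotated transcripts, an alternative added after the data were seen, Ltbp2 came to 1199, beside Fbn1 (1286), and Ltbp1 to 382, beside Lrrc32 (407). On that scale Ltbp3 (1719) was above Ltbp4 (1427) in 18 of 20 choroids and Ltbp1 above Nrros in 18 (8 of 10 without and 10 of 10 with PLX), whereas Lrrc32 was above Ltbp1 in 12 of 20.

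In retina, again over both diets, the order per kb was Ltbp3 (279), Ltbp4 (69.7), Thbs1 (58.5), Fbn1 (34.5), Nrros (31.6), Ltbp1 (30), Lrrc32 (3.6) and Ltbp2 (3.55). Ltbp3 was above Ltbp4 in 20 of 20 retinas without overlap. Ltbp4 exceeded Thbs1 in 12, Fbn1 exceeded Nrros in 11, Nrros exceeded Ltbp1 in 12 and Lrrc32 exceeded Ltbp2 in 11 of 20 retinas, so these neighbours were not separated. The medians of Ltbp4 and Thbs1 were 78.1 and 51.8 without and 65.1 and 74.9 with PLX. With median transcript lengths Ltbp1 came to 51, above Fbn1 (41.8) in 16 of 20 retinas. By either length the activator Thbs1 led in choroid and the binding protein Ltbp3 in retina.

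**Figure D2:**
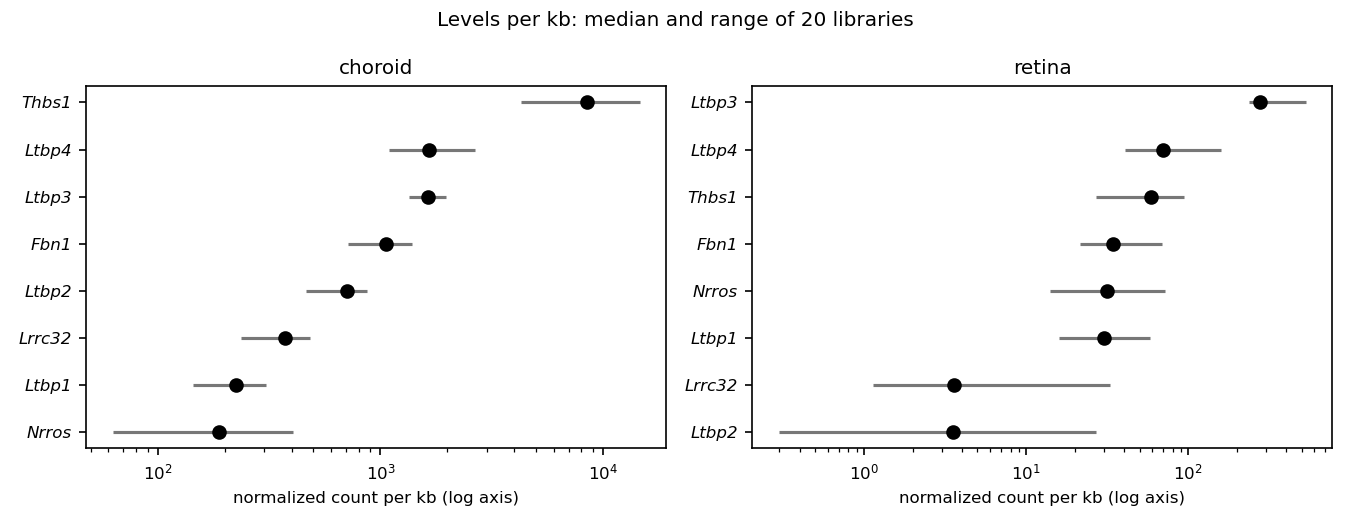
Normalized count per kb of canonical transcript (log axis) for each member in choroid and retina, with the median as a point and the range over 20 libraries as a line. Thbs1 leads in choroid with a median of 8484 and Ltbp3 in retina with 279.

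To ask whether latent TGFβ genes follow the depletion of MP, mice with and without PLX were compared in each tissue. In choroid, over both genotypes, 1 member fell with PLX and 2 rose. Nrros fell by 1.64 on the log2 scale (SE 0.13, adjusted p = 8e-09), Ltbp2 rose by 0.37 (SE 0.09, adjusted p = 0.0118) and Ltbp4 rose by 0.39 (SE 0.12, adjusted p = 0.0468). Among all 23619 genes tested, 7.13% met the same threshold, 2.07% higher and 5.06% lower with PLX. The median difference of the members was 0.20 and that of all genes 0.001. In bulk tissue, fewer cells of a type and less RNA per cell cannot be told apart.

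Nrros in control – PLX choroids was 1546, 1153, 1093, 1019 and 1320 normalized counts in mice 1 to 5. In control + PLX choroids it was 364, 617, 351, 427 and 240 in mice 11 to 15. Every control choroid with PLX was lower than every one without, the means being 1226 and 400, a 3.07-fold difference. In Tgfbr2ΔEC mice it was 917, 1125, 1126, 1180 and 830 without PLX (mice 6 to 10) and 381, 301, 335, 349 and 304 with PLX (mice 16 to 20). Here too the groups did not overlap, and the means of 1036 and 334 differed 3.10-fold. The limma differences were -1.67 (95% interval -2.04 to -1.29, adjusted p = 2.53e-06) in control and -1.62 (-2 to -1.25, adjusted p = 3.52e-06) in Tgfbr2ΔEC mice. Nrros was the only member called in either genotype, where 3.75% of all genes were called in control and 4.06% in Tgfbr2ΔEC mice. Over both genotypes, the exact two-sided permutation p for Nrros was 3.15e-05, the smallest that relabelling diet within genotype can give. Leaving out mouse 15, whose choroid stood apart by its neural retina score, gave -1.56 (limma, adjusted p = 3.3e-09).

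Ltbp2 in control choroids was 3184, 4978, 4160, 4198 and 3723 without PLX and 5280, 5091, 5869, 5072 and 5204 with PLX. All 5 control choroids with PLX were above all 5 without, by a mean ratio of 1.31. In Tgfbr2ΔEC choroids it was 3148, 3716, 4888, 4739 and 3744 without and 4308, 5224, 5354, 4456 and 5878 with PLX. These groups overlapped, with 3 of 5 mice above all of those without PLX and a mean ratio of 1.25. Within a genotype, Ltbp2 was not called after adjustment over all genes (limma, adjusted p = 0.0911 in control and 0.175 in Tgfbr2ΔEC mice), and the exact permutation p was 0.00794, the smallest possible for 5 against 5, in control and 0.0635 in Tgfbr2ΔEC mice. After adding the neural retina score to the fit, the limma difference over both genotypes was 0.32 and no longer called (adjusted p = 0.0611).

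Ltbp4 in control choroids was 5877, 6969, 6965, 6961 and 5615 without PLX and 8036, 12543, 6667, 9326 and 7871 with PLX. In Tgfbr2ΔEC choroids it was 5259, 7378, 5143, 7748 and 9517 without and 7953, 7957, 8996, 8288 and 10606 with PLX. Mouse 12 gave the highest value, 4 of 5 control mice and 1 of 5 Tgfbr2ΔEC mice with PLX were above all of their counterparts, and the groups overlapped in both genotypes. The call of Ltbp4 over both genotypes was close to the threshold and was lost when any of 16 of the 20 mice was left out, all but mice 9, 10, 13 and 15 (limma, adjusted p 0.0524 to 0.0972 where lost and 0.0124 to 0.0487 where kept). It was also lost without a minimum mean and with the neural retina or a sex score as covariate.

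The other 5 members were not called in choroid. Their log2 differences with PLX were 0.26 for Thbs1 (95% interval -0.16 to 0.68), 0.21 for Lrrc32 (-0.02 to 0.44), 0.19 for Ltbp1 (-0.06 to 0.44), 0.13 for Ltbp3 (-0.02 to 0.27) and 0.05 for Fbn1 (-0.19 to 0.28). Among them Thbs1 spread most, from 26566 to 91047 normalized counts within control + PLX choroids. The intervals of these 5 leave room for changes of up to 0.68 on the log2 scale. The difference between genotypes in the response to PLX was not called for any member (limma, 0 of 8, also 0 at an unadjusted p under 0.05). Over all genes 0.0% were called, with 1552 at an unadjusted p under 0.05.

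**Figure D3:**
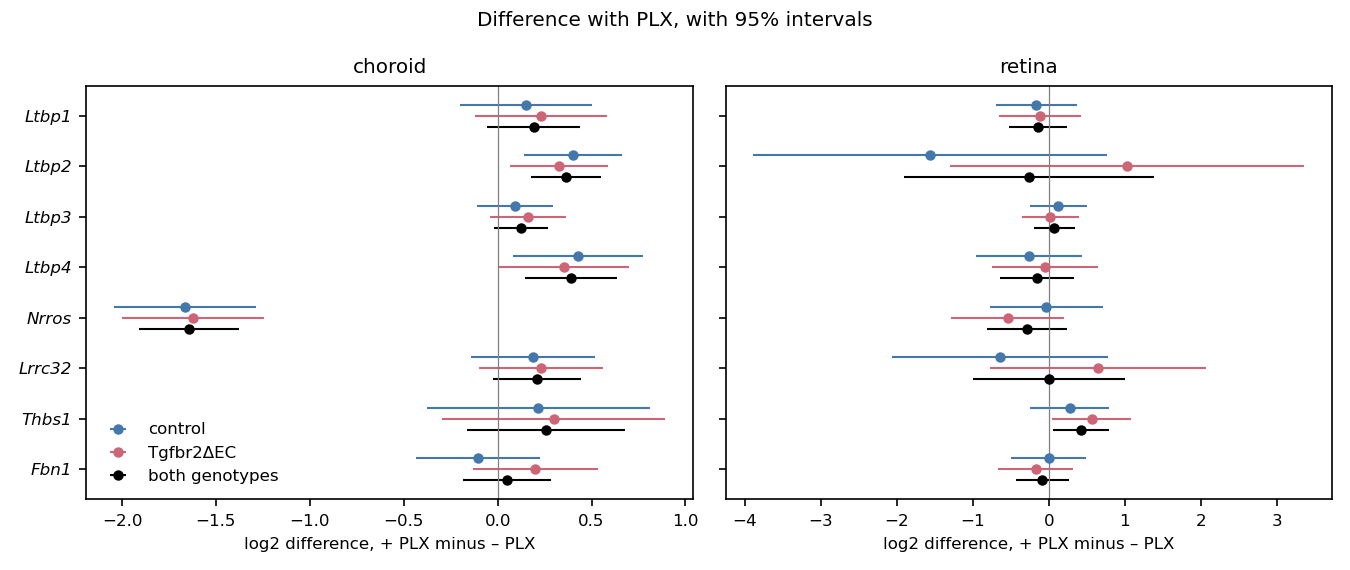
Log2 difference between mice with and without PLX (log2(normalized count + 1) scale) for each member in choroid and retina, in control, Tgfbr2ΔEC and both genotypes, with 95% intervals as bars (the horizontal scales differ). In choroid Nrros lies at -1.64 over both genotypes, and the retina intervals of Ltbp2 and Lrrc32 are the widest.

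Markers of other cells moved in choroid with the same diet. Of 9 matched MP markers 8 fell, Tmem119 being the exception (0.03), and their score was 10.75 to 11.06 without and 8.01 to 8.97 with PLX. The 5 macrophage markers all fell. Of 7 endothelial markers 3 were called higher (Pecam1, Tek and Egfl7), of 5 mural markers 2 (Rgs5 and Myh11) and of 6 fibroblast markers 1 (Dcn, 0.45). The endothelial score was 11.59 to 11.90 without and 11.74 to 12.09 with PLX, the mural score 12.13 to 12.72 and 12.63 to 12.97, and the fibroblast score 15.44 to 15.94 and 15.66 to 16.18. Of 5 platelet markers, only Pf4 was called lower (-3.47), and the other 4 were not called. The level of Pf4 in choroids with PLX was 14.1 to 148 normalized counts. No marker of the MP, macrophage, endothelial, mural and fibroblast lists was at 0 in a choroid. The 10 neural retina markers had a median difference with PLX of -1.10 over both genotypes (limma, 0 of 10 called, 3 at an unadjusted p under 0.05). In Tgfbr2ΔEC choroids the median was -2.19, with 1 of 10 called and 10 at an unadjusted p under 0.05, and in control choroids it was 0.12. Their median score was 11.68 without and 10.22 with PLX in Tgfbr2ΔEC and 10.2 and 9.85 in control choroids. With this score as a covariate, the difference with PLX was 0.32 for Ltbp2 (adjusted p = 0.0611) and 0.38 for Ltbp4 (adjusted p = 0.118), neither of them called, and -1.68 for Nrros (adjusted p = 4.97e-08). The part of the endothelial, mural and fibroblast scores in the differences of Ltbp2 and Ltbp4 was not tested.

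In retina no member was called with PLX over both genotypes (limma, 0 of 8, with 1 at an unadjusted p under 0.05), although 1.09% of 23243 genes were. Within control mice 0.736% of genes and within Tgfbr2ΔEC mice 0.516% were called, and again no member (0 and 1 of 8 at an unadjusted p under 0.05). Nrros in control retinas was 275, 118, 102, 106 and 140 normalized counts without PLX and 277, 234, 53.9, 108 and 114 with PLX. The ranges overlapped nearly whole, with means of 148 and 157. In Tgfbr2ΔEC retinas it was 118, 255, 129, 159 and 179 without and 141, 80.6, 103, 116 and 124 with PLX. Of these, 3 of 5 mice with PLX were below all of those without, and the means of 168 and 113 differed 1.49-fold. The limma difference over both genotypes was -0.29 (95% interval -0.81 to 0.24, adjusted p = 1.0). The exact permutation p was 0.921 in control and 0.0476 in Tgfbr2ΔEC mice, before any adjustment for the number of genes and comparisons.

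The response of Nrros to PLX differed between the tissues. The choroid difference minus the retina difference was -1.36 on the log2 scale (SE 0.30, 95% interval -1.96 to -0.76, adjusted p = 0.00651, limma). It was the only member called in this comparison, in which 1.37% of genes were called. The markers of the MP list fell in the same retinas, 9 of 9 being called, and for 7 of 9 the choroid difference was called less negative than the retina difference (limma). The MP score in retina was 6.63 to 7.95 without and 1.09 to 2.52 with PLX. Csf1r, the target of PLX5622, was 10.4-fold lower in control and 8.15-fold lower in Tgfbr2ΔEC retinas, and 2.05-fold and 2.00-fold lower in choroids. Cx3cr1, the fractalkine receptor of microglia, fell from a mean of 261 to 0.475 normalized counts in control retinas. Adgre1, which encodes the macrophage protein F4/80, was at 0 in every retina with PLX. Of the 5 macrophage markers, 5 fell in choroid and 3 in retina. Like Nrros, 2 of them were called for a lower choroid than retina difference, Cd163, a scavenger receptor (-4.38), and Lyve1, a hyaluronan receptor of some macrophages and of lymphatic endothelium (-2.35), whereas Adgre1 gave 3.01 (log2 scale, limma). Lyve1 was 6.61-fold and 5.01-fold lower with PLX in control and Tgfbr2ΔEC choroids, and its means in retinas without and with PLX were 301 and 269 normalized counts in control and 312 and 297 in Tgfbr2ΔEC mice. Cd163 had means of 3.01 and 1.05 in the retinas without PLX and was listed at 0 with PLX, near or under the floor of 3 reads. Nrros was measured at 53.9 to 277 normalized counts in these retinas with PLX, in which Cx3cr1 was at most 4.19 and Adgre1 at 0. Other listed markers stayed higher there. The means in control and Tgfbr2ΔEC retinas with PLX were 55.3 and 65.8 for Csf1r and 18.3 and 19.7 for Cd68. For P2ry12 they were 14.0 and 15.8, whereas C1qa was at 1.91 and 1.94. Which cells carried the Nrros RNA in these retinas was not tested. The annotated exons of Nrros share 510 bases with a lncRNA on the opposite strand, Gm61064, which was not measured here. The paper describes a stranded library preparation for choroidal tissue, but the strand setting of the quantification is not given in the sources used here.

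**Figure D4:**
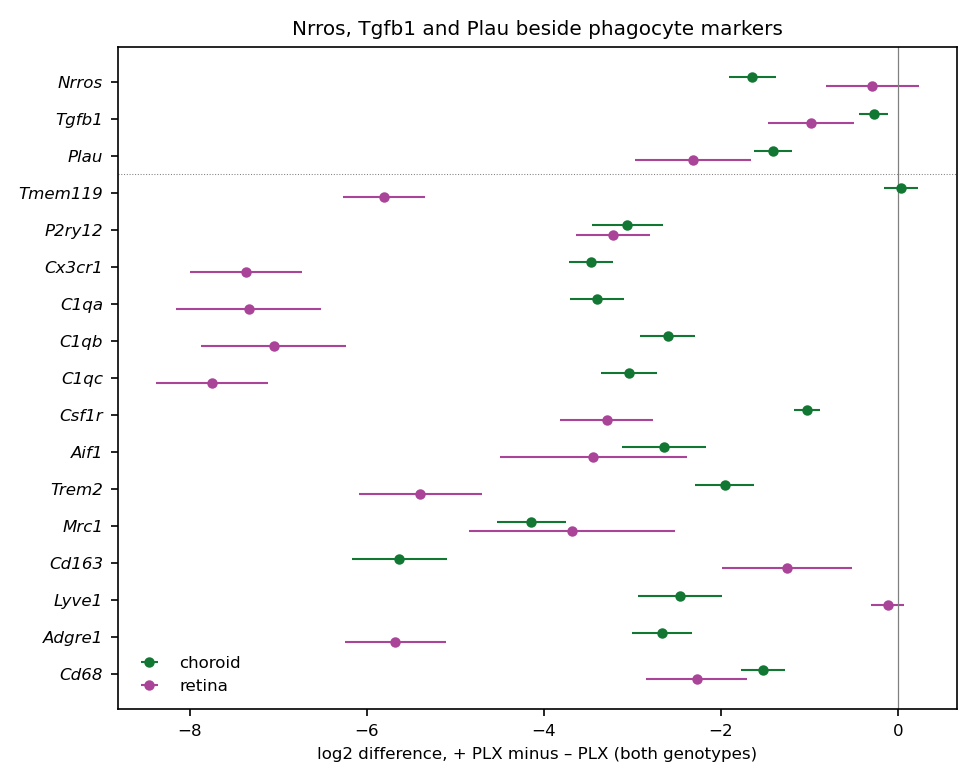
Log2 difference between mice with and without PLX over both genotypes (log2(normalized count + 1) scale), with 95% intervals, for Nrros, Tgfb1 and Plau above the dotted line and 14 markers below it, 9 of the MP list and then 5 of the macrophage list. In retina Nrros lies at -0.29 and Lyve1 at -0.12, both with intervals that include 0, and the other 13 markers lie between -1.25 and -7.75.

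Thbs1 was the member closest to a call in retina. In control mice it was 241, 380, 362, 242 and 233 normalized counts without PLX and 270, 583, 169, 382 and 481 with PLX. In Tgfbr2ΔEC mice it was 337, 309, 372, 361 and 247 without and 454, 493, 549, 540 and 367 with PLX. In the latter, 4 of 5 retinas with PLX were above all without, whereas the control groups overlapped. Its difference over both genotypes was 0.42 (95% interval 0.05 to 0.79), with adjusted p = 0.645 (limma) and an exact permutation p of 0.0405. The RPE score of the retinas was 6.66 to 8.27 and 7.61 to 8.10 without PLX (control and Tgfbr2ΔEC) and 6.25 to 8.46 and 8.06 to 8.59 with PLX. Across the 20 retinas, deviations of Thbs1 from its group means ran with those of the RPE score (Pearson's r 0.74, Spearman's rho 0.56), and Rpe65 was among the 3 genes most like it. Libraries share depth and composition, so this is a description.

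Ltbp2 and Lrrc32 in retina were too low and variable for a comparison. Ltbp2 was between 2.01 and 182 normalized counts, with a coefficient of variation of 117.6%, and Lrrc32 between 5.19 and 150 (112%). Their 95% intervals for PLX spanned -1.91 to 1.38 and -1 to 1. Ltbp1, Ltbp3, Ltbp4 and Fbn1 gave -0.14, 0.07, -0.16 and -0.09. The fibroblast and melanocyte scores of the retinas, markers of tissue outside the neural retina, ranged from 4.08 to 6.71 and from 3.44 to 7.20, respectively. With the fibroblast score as a covariate, an alternative added after the data were seen, again 0 of 8 members were called with PLX (limma, adjusted p 0.549 to 1.0). The part of the melanocyte score was not tested.

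The question of whether loss of endothelial TGFβ receptor II alters its own storage genes was addressed by comparing Tgfbr2ΔEC with control mice. No member was called in either tissue, with or without PLX (limma, 0 of 8 in each of 4 comparisons, with 0 of 8 at an unadjusted p under 0.05 in both choroid comparisons and in retina without PLX, and 1 of 8 in retina with PLX). Over all genes, the calls came to 0.00423% of genes (1 of 23619) in choroid without PLX and again 0.00423% with PLX, with 2184 and 889 genes at an unadjusted p under 0.05, and 0.0% in retina in both diets, with 758 and 629. In choroid without PLX the 10 neural retina markers differed between genotypes by a median of 2.48 on the log2 scale, none called but 10 of 10 at an unadjusted p under 0.05 (limma), and their score was 11.32 to 12.86 in Tgfbr2ΔEC and 7.72 to 10.66 in control mice. With this score as a covariate, 0 of 8 members were called in choroid in both diets. When mouse 15, a mouse of another group, was left out of the shared fit, 411 genes were called in choroid without PLX, and still 0 of 8 members. The interaction of genotype and PLX in retina gave 0.0% of genes (567 at an unadjusted p under 0.05) and 0 of 8 members (0 at an unadjusted p under 0.05).

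In choroid without PLX, the log2 differences between genotypes ran from -0.24 for Nrros (95% interval -0.62 to 0.14) to 0.13 for Lrrc32 (-0.20 to 0.46). Fbn1 gave -0.21 (-0.54 to 0.13) and Ltbp2 -0.01 (-0.27 to 0.26). With PLX they ran from -0.20 for Nrros to 0.17 for Lrrc32. The width of the intervals shows that choroid changes of the LTBP genes of more than 0.43 on the log2 scale lie outside the intervals in both diets, whereas for Thbs1 they reach 0.67. In retina with PLX, Lrrc32 was 5.74, 5.19, 12.2, 16.3 and 41.5 in control and 68.8, 150, 51.7, 10.1 and 13.7 in Tgfbr2ΔEC mice. The groups overlapped, the difference was 1.56 (0.14 to 2.98, adjusted p = 1.0, limma), and the exact permutation p was 0.103.

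**Figure D5:**
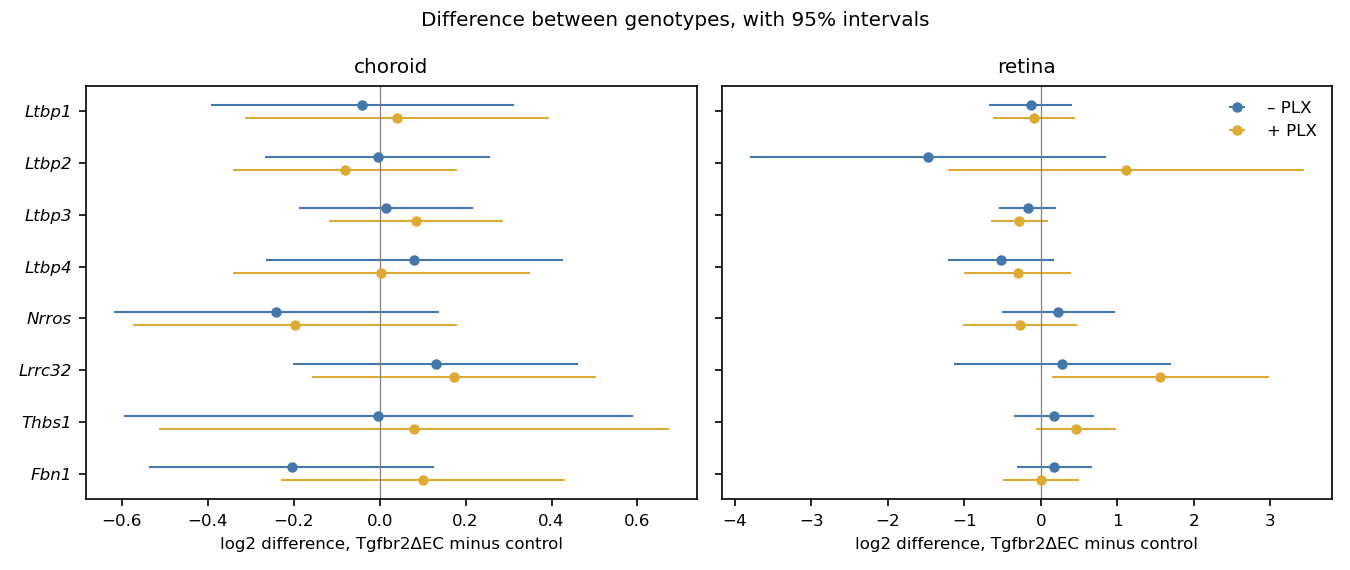
Log2 difference between Tgfbr2ΔEC and control mice (log2(normalized count + 1) scale) for each member, without and with PLX, in choroid and retina, with 95% intervals as bars (the horizontal scales differ). All choroid points lie between -0.24 and 0.17.

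Of 30 other genes of the pathway, cargo, anchors, integrins, proteases and further thrombospondins, 27 were higher in choroid than in retina, Tgfb2 was lower (-0.39, adjusted p = 7.91e-06, limma) and Mmp9 and Adamtsl2 were not called, against 82.0% of all genes called and 40.8% higher in choroid. All 6 integrin subunits and 9 of 10 microfibril and matrix anchors were higher in choroid. Among the ligands that the members store, Tgfb1 was 5.62 and Tgfb3 4.56 higher in choroid on the log2 scale. With PLX in choroid, Fbln5, an elastic fibre protein (0.29), and Thbs2, thrombospondin-2 (0.36), rose. Plau, the urokinase protease (-1.41, adjusted p = 3.45e-09), Mmp9, a gelatinase (-0.51, adjusted p = 0.0463), and Tgfb1 (-0.27, adjusted p = 0.0388) fell, and the other 25 were not called, against 7.13% of all genes called. Mmp9 overlapped in control choroids, at 348 to 661 normalized counts without and 311 to 748 with PLX. Its means without and with PLX were 550 and 466 in control and 718 and 426 in Tgfbr2ΔEC choroids. Tgfb1 also fell in retina, by 0.98 (adjusted p = 0.0431), from 31.2 to 136 normalized counts without to 19.5 to 58.8 with PLX, as did Plau by 2.31 (adjusted p = 7.64e-05). The calls of Mmp9 in choroid and of Tgfb1 in both tissues were close to the threshold. Whether they hold with a mouse left out or with a score as covariate was not tested. Plau in retinas with PLX was 3.1 to 9.49 normalized counts in control and 1.03 to 6.58 in Tgfbr2ΔEC mice. Its lowest values lie under 3 reads (2.235 to 3.36 in retinas), so that the size of its fall there is poorly fixed. Tgfb2 and Tgfb3 were at 0.01 and 0.14 in retina and at 0.26 (adjusted p = 0.22) and 0.29 (adjusted p = 0.0852) in choroid. Unlike Nrros, Plau and Tgfb1 were called lower in both tissues, and their response was not called different between tissues (adjusted p = 0.196 for Tgfb1, limma). Of the 30 genes, 0 were called between genotypes in any of the 4 comparisons.

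Within groups, each member was set beside all genes with a mean of at least 10, by the correlation of deviations from group means over the 20 libraries of a tissue. In choroid Nrros ran most closely with Psmg4 (r 0.92), Cd302 (0.81), a lectin of myeloid cells, and Renbp (0.80), Ltbp1 with Cd34 (0.86), and Ltbp4 with Six2 (0.87). Fbn1 ran with Arid5a (0.87), Lrrc32 with Farp1 (0.88), Ltbp2 with Cd80 (0.79) and Ltbp3 with Pced1a (0.77). Leaving out the 2 farthest libraries lowered the value of Nrros with Cd302 to 0.45 and with Renbp to 0.49, and with Psmg4 to 0.83. In retina Ltbp2 ran with Optc (0.89), which encodes opticin, and Fbln1 (0.87), Ltbp1 with Aldh1a1 (0.86), Ltbp3 with B4galnt4 (0.78), Ltbp4 with Wfdc1 (0.85), Nrros with Tepsin (0.79), Lrrc32 with Efhd1 (0.79), Thbs1 with Ermn (0.90) and Fbn1 with Pias3 (0.91). These are among the highest of 17596 genes in choroid and 17179 in retina, are given with no test, and share the depth and composition of the libraries. Among pairs of members, the values in both tissues lay between -0.44 and 0.51. Set beside the marker scores in choroid in the same way, Nrros gave its highest values with melanocyte (r 0.49), fibroblast (0.45) and MP markers (0.38). With the macrophage score it gave 0.04.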

How the data were processed

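Choroid and retina of 20 mice were analysed, 5 mice per group and tissue, and the mouse number in the labels joins the tissues of a mouse. The authors checked reads with FastQC 0.11.5, quantified them with salmon 1.10.1 against GRCm39 (GENCODE M29), imported them with tximport 1.24.0 and normalized them with DESeq2 1.36.0. The methods describe an analysis of each tissue on its own, but the deposited values share one scale: when each library was divided, gene by gene, by the geometric mean of the 40 (15800 genes with no 0), the median quotient came to 1.0082 for choroids and retinas alike. Choroid-to-retina values rest on this scale. The deposited values are this normalized signal per gene, called normalized counts here. In a library, 53.1% to 81.8% of low values fell within 0.1 of a multiple of the estimated value of 1 read. This is too few to recover counts, so no count test was run and depth is approximate. The report gives the reads per library, and 3 reads (2.235 to 3.54 normalized counts) were taken as the floor, for counting error only.

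Identifiers were matched to GENCODE M39 of GRCm39 (53700 of 54307 genes), which is later than the authors' release and also gave positions, promoters and transcript lengths. Genes with a mean of at least 1 in the fitted libraries were tested on log2(normalized count + 1), which understates the change of low genes, by limma 3.58.1 with a mean-variance trend in R 4.3.3. Each tissue had one model of its 4 groups with no covariate, and the tissue comparisons used all 8 groups. Benjamini-Hochberg adjusted p at or under 0.05 over all genes was called, and percentages of genes called refer to this rule. The procedure was tested on simulated data. Members were also compared by exact two-sided permutation tests. Python 3.11.15, numpy 2.4.6, pandas 2.3.3, scipy 1.17.1 and matplotlib 3.10.9 were used.

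The members and lists were chosen with earlier results of these data known. Named are the 8 members, pathway genes past the threshold, the ligands Tgfb1, Tgfb2 and Tgfb3, markers and genes among the 3 most like each member in a tissue. Results that need certain other genes are not reported here. Of 62 listed markers, 61 were matched. No group of a tissue shares a mouse number with another, so the block on mice was applied to the tissue comparisons (within-mouse consensus correlation -0.0109). Alternatives were other pseudocounts, minimum means and scalings, robust variance, score covariates, fits of the compared groups, and each mouse left out. A fibroblast score covariate in retina and levels per kb of median transcript length were added after the data were seen. The authors' covariates, sex and estimated neuronal share, were not used here.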

Additional observations from a re-analysis of the deposited data

Results flagged for a closer look

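Among 64 groups of 5 libraries (8 members, 8 groups), 5 held a library whose gap to the nearest other exceeded 0.71 of the range, the limit for 5 samples, where chance gives about 3.2. In retina, Ltbp2 in mouse 11 (control + PLX) was 97.6 normalized counts against 3.08 to 19.8 in the others (gap 0.823 of the range). Nrros in mouse 1 (control – PLX) was 275 against 102 to 140 (0.78). Lrrc32 in mouse 9 (Tgfbr2ΔEC – PLX) was 98.1 against 14.5 to 20.5 (0.928). Fbn1 in mouse 4 (control – PLX) was 824 against 259 to 420 (0.715). In choroid, Ltbp2 in mouse 13 (control + PLX) was 5869 against 5072 to 5280 (0.739).

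The response of Nrros to PLX differed between choroid and retina by -1.36 on the log2 scale (limma, adjusted p = 0.00651).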

How the results depend on the processing

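Of 112 member differences, 14 were called, and none turned in direction while called. The fall of Nrros with PLX in choroid (-1.73 to -1.56 over both genotypes), the choroid excess of all 8 members and the tissue difference of the Nrros response (-1.50 to -1.22, adjusted p up to 0.0207) were called under every alternative run. With the neural retina score as covariate, 1 member in place of 3 was called with PLX in choroid over both genotypes (Ltbp2 adjusted p = 0.0611, Ltbp4 0.118). Leaving out 1 mouse at a time gave 2 to 3 members there and 1 to 2 in control mice, where Ltbp2 was called without mouse 2 (adjusted p = 0.0369), and Lrrc32 was called over both genotypes without mouse 12 (adjusted p = 0.0436). The 98 uncalled differences were otherwise uncalled, and 135 of their 2945 values under alternatives had the other sign. Blocking on the mouse gave 8 and 1 members called in the tissue comparisons and changed no call. No paired analysis was possible within a tissue because the groups share no mouse.

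Counts over all genes moved more. With PLX, fitting only control choroids gave 572 genes in place of 885 (5.94% higher in place of 16%), the neural retina covariate 537 in place of 958 in Tgfbr2ΔEC choroids, and a minimum mean of 10 gave 154 in place of 254 in retina and 104 in place of 171 in control retinas. Between genotypes in choroid without PLX, 303 genes were called in place of 1 when only these groups were fitted, and 411 without mouse 15, against 1 or 2 without any other mouse. Without mouse 15, 620 genes in place of 332 responded differently between tissues. Equal totals moved the median tissue difference of all genes from -0.012 to -0.121. Low retinal levels limit Ltbp2 and Lrrc32.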
